A study of Mus musculus with 8 samples.

Results

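The 10 genes described here encode the PGC-1 coactivators (Ppargc1a, Ppargc1b), the estrogen-related receptors (Esrra, Esrrb, Esrrg), PPAR alpha and delta (Ppara, Ppard), the retinoid X receptor gamma (Rxrg) and the mitochondrial factors Tfam and Nrf1. They were taken as the genes to which the RefSeq accession of a probe belonged, which gave 18 probes for 10 genes out of 22909 named genes on the array. The arrays measured RNA of heart ventricle from Tnnt2 ΔK210 knock-in (KI) mice, homozygous for deletion of one lysine of cardiac troponin T and a model of inherited dilated cardiomyopathy, and from wild-type (WT) mice. There were 4 groups of 2 arrays: KI at 1 week, WT at 1 week, KI at birth (0 day) and WT at birth. Per the labels, 3 ventricles were combined for a group; strain and sex are not given in the sources used here. Because no source says that paired arrays come from separate cultures, animals or pools, the p-values cover only array-to-array spread, possibly technical.

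PGC-1 alpha and beta do not bind DNA themselves. They dock on nuclear receptors such as the ERRs and PPARs, which switch on genes for fatty acid oxidation and the respiratory chain, and PPARs bind DNA as a pair with an RXR. NRF1 acts on nuclear genes of mitochondria, and Tfam binds and packages mitochondrial DNA and helps to start its transcription. Around birth the heart is known to move from glucose towards fatty acids as fuel, and this network is known for its part in that change.

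The samples of the 1-week arrays differ between the deposited records. In the deposited value table, arrays B and C are KI and arrays A and D are WT; in the scanner files, arrays C and D are KI and arrays A and B are WT. The value-table samples are used here and scanner-file results are given beside them. The mean of the age differences over both genotypes has the same estimate in both. Age cannot be told apart from slide row, since each row held arrays of one age, and at birth genotype cannot be told apart from slide column.

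The 75th percentile of signal of the non-control probes lay between 342.4 and 523.0, lowest on array D, and 58.9% to 63.1% of probes were well above background. Levels below are log2 signal relative to that percentile on the same array, and they are compared for one probe between arrays, not between probes. Precision is limited by having 2 arrays a group. All 10 ventricular cardiomyocyte markers were above background on every array, with a median level of 8.13 to 8.53. The scanner software marked KI birth replicate 1 for evaluation. Array D lay apart on the second principal component (11.7% of variance), after one that separated the ages (60.8%). The targeted gene, Tnnt2, had +0.15 ± 0.19 at 1 week and -0.08 ± 0.19 at birth (KI minus WT, limma standard error) and did not pass. At 1 week it was -0.28 ± 0.17 with scanner-file samples and -0.13 without array D. A transcript level is not taken here as a check of the genotype, since the position of the probe is not known. Values after ± are limma standard errors unless stated. All 10 genes had a chosen probe above background on all 8 arrays, and none was saturated.

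Among the 10 genes, Rxrg changed most with age, Esrrg fell and Ppara rose, and the PGC-1 coactivators, Esrra, Esrrb, Ppard, Tfam and Nrf1 did not pass the test. The call for Rxrg held in every alternative run, while those for Esrrg and Ppara were lost in several, as given below. In the comparison of 1 week with birth over both genotypes, 2 of the 10 genes were higher and 1 was lower at an adjusted p below 0.05 (limma, Benjamini-Hochberg over 15744 genes). Over all genes tested, 29.3% passed, 14.8% higher and 14.5% lower. With scanner-file samples the same 3 genes passed, against 30.1% of all genes. The median difference of the 10 genes was -0.06, against -0.03 over all genes tested. The share of these genes that passed was near that of all genes. The 4 arrays of one age did not overlap those of the other for 4 of the 10 genes, Ppara, Rxrg, Esrrg and Tfam, compared with 35.6% of all genes.

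**Figure D1:**
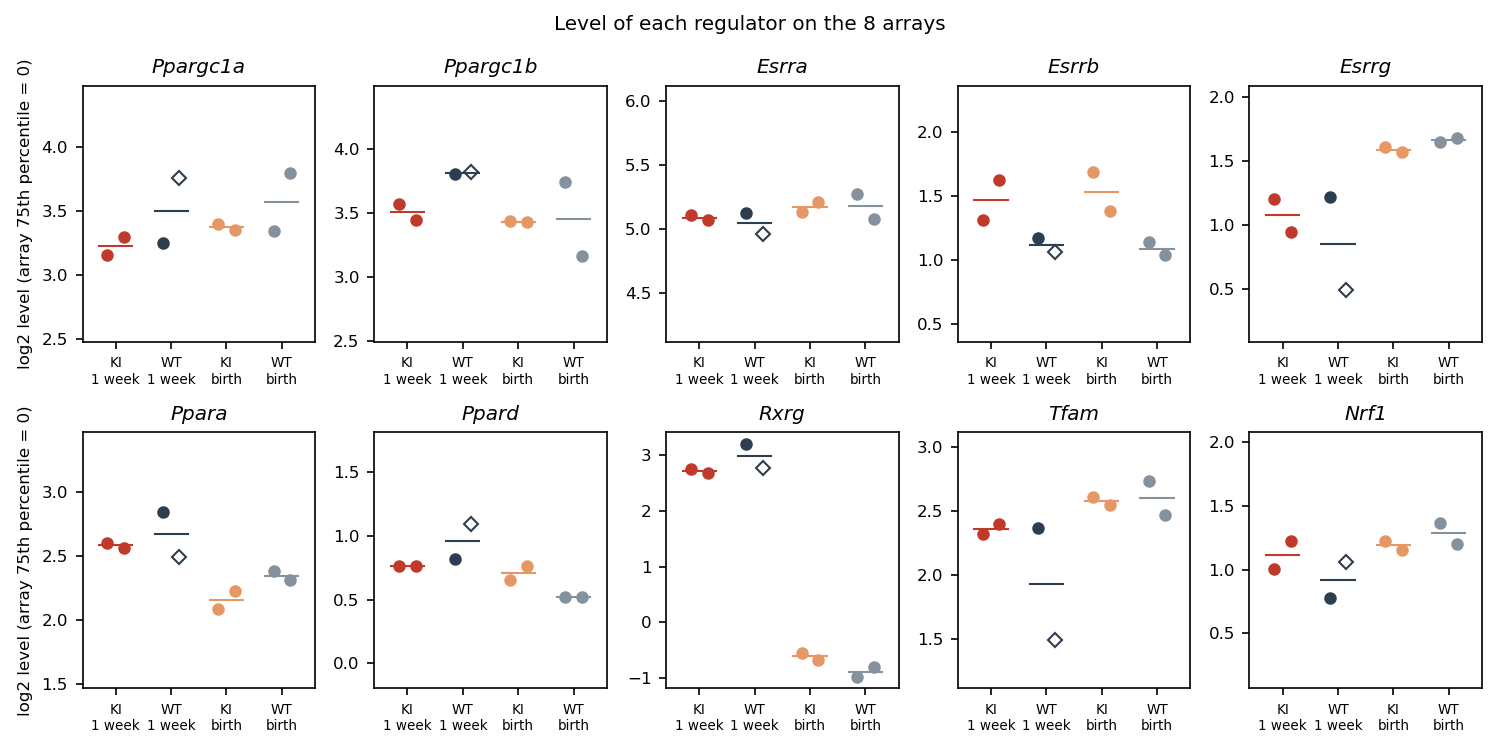
Level of each gene's chosen probe (log2 signal relative to the array's 75th percentile) on the 8 arrays, by group; each point is an array, the line is the group mean, and the open diamond is array D. Rxrg sits between 2.69 and 3.21 on the 1-week arrays and between -0.99 and -0.55 on the birth arrays; the other genes move far less.

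Rxrg encodes RXR gamma, the retinoid X receptor of heart and skeletal muscle among other tissues, which pairs with PPARs and other nuclear receptors. Its level was 2.76 and 2.69 on the KI arrays and 3.21 and 2.78 on the WT arrays at 1 week, against -0.55 and -0.68 on the KI arrays and -0.99 and -0.81 on the WT arrays at birth. All 4 arrays at 1 week lay above all 4 at birth, and no array came near the other age. The processed signal was between 2348.07 and 4726.55 at 1 week, against 222.052 to 314.048 at birth. The difference was +3.61 ± 0.12 over both genotypes (adjusted p = 2.584e-05, limma), which is 12.25-fold with a 95% interval of 10.03 to 14.95. Ordered by this difference, Rxrg ranked 18 from the highest of 15744 genes. Within a genotype Rxrg was the 1 gene of the 10 that passed, at +3.34 ± 0.17 in KI (adjusted p = 0.0003268, limma), where 10.6% of all genes passed, and +3.89 ± 0.17 in WT (adjusted p = 0.0002267), where 19% passed. The gene rests on 1 probe, so no other probe speaks to it.

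The 250 bases before each Rxrg start site in the RefSeq table (GRCm38.p6) are shown because Rxrg changed most. Letters that match one of the 6 motifs searched are in capitals. The motifs, read on both strands, were AAGGTCA for the ERRs, AGGTCA for nuclear receptors, GCGCATGC for NRF1, CCGGAAG for ETS factors, CACGTG for the E-box and TATAAA for the TATA box, and any AAGGTCA also contains AGGTCA.
Rxrg window 1, chr1:167598112-167598361, plus strand: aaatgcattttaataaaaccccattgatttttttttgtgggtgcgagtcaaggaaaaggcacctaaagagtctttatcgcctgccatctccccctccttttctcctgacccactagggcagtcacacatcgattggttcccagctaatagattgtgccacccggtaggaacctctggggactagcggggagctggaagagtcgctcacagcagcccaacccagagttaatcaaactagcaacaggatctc
Rxrg window 2, chr1:167618015-167618264, plus strand: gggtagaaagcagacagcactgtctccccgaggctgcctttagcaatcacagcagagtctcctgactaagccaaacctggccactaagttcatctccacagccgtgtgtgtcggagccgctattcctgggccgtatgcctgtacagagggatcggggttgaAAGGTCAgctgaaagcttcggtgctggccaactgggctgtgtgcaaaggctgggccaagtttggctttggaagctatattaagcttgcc
The window at the second start site holds AAGGTCA, with its first letter 89 bases before the start site, and AGGTCA within it. Window 1 holds no match to any of the 6. Over all 32851 windows of the table, AAGGTCA is in 4.08%, AGGTCA in 14.02%, GCGCATGC in 2.26%, CCGGAAG in 6.91%, CACGTG in 6.02% and TATAAA in 12.37%. A match is a description of letters, not of a bound site, and which start site was used was not measured.

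Esrrg encodes ERR gamma, which raises oxidative genes in heart. Its chosen probe stood at 1.20 and 0.94 on the KI arrays and 1.21 and 0.49 on the WT arrays at 1 week, against 1.60 and 1.57 on the KI arrays and 1.64 and 1.68 on the WT arrays at birth. The 1-week arrays lay below every birth array, and array D was the lowest. The fall was -0.66 ± 0.17 over both genotypes (adjusted p = 0.0247, limma), or 0.632-fold with a 95% interval of 0.482 to 0.828. The other probe of the gene gave -0.82 ± 0.15 in a fit of all probes (adjusted p = 0.00851, limma). Within a genotype the test did not pass, with -0.52 ± 0.23 in KI (adjusted p = 0.224, 95% interval -1.07 to 0.04) and -0.81 ± 0.23 in WT (adjusted p = 0.053). In WT it was -1.17 without array A, which passed (adjusted p = 0.00813), and -0.45 without array D. Without array D the fall over both genotypes was -0.48 ± 0.10 (adjusted p = 0.0219). With scanner-file samples it was -0.87 in KI, which passed (adjusted p = 0.0176), so 2 of the 10 genes passed in KI (15.3% of all genes) and 1, Rxrg, in WT (12.7%). The call over both genotypes was lost with array B, array C or any one birth array left out (-0.73 to -0.60, adjusted p = 0.05064 to 0.08129) and with no filter on dim probes (adjusted p = 0.05136).

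The RefSeq table holds 15 windows for 9 of the 10 genes, and windows are printed for the 3 genes that passed over both genotypes. Esrrg has 4.
Esrrg window 1, chr1:187608756-187609005, plus strand: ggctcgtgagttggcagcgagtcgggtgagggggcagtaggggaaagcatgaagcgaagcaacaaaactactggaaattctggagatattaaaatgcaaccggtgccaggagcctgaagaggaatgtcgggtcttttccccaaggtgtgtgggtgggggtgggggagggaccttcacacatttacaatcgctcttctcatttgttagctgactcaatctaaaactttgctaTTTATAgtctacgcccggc
Esrrg window 2, chr1:187651508-187651757, plus strand: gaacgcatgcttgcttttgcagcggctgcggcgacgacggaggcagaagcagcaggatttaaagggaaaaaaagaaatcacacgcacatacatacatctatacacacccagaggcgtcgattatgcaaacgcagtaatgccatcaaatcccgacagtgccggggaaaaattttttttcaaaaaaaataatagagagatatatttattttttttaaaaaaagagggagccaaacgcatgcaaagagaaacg
Esrrg window 3, chr1:187651991-187652240, plus strand: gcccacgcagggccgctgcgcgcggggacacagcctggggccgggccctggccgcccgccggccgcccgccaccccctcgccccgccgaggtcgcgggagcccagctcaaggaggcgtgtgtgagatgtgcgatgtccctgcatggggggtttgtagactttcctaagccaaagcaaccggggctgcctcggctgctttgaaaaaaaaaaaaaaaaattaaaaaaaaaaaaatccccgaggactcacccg
Esrrg window 4, chr1:187997577-187997826, plus strand: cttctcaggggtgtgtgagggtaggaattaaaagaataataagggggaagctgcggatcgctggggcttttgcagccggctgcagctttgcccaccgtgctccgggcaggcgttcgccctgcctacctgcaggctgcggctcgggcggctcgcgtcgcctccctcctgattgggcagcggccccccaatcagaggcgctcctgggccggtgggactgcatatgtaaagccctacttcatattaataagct
Only window 1 holds a match, TATAAA on the opposite strand, 19 bases before the start site. The other 3 windows hold none of the 6. Among genes whose windows are not printed, Esrra holds GCGCATGC, Tfam CCGGAAG and Nrf1 TATAAA, and CACGTG is in none of the 15 windows.

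Ppara encodes PPAR alpha, which activates genes of fatty acid oxidation. Its level was 2.61 and 2.57 on the KI arrays and 2.85 and 2.50 on the WT arrays at 1 week, against 2.09 and 2.23 on the KI arrays and 2.38 and 2.32 on the WT arrays at birth. The ages did not overlap, and the nearest arrays were 2.50 at 1 week (array D) and 2.38 at birth. The rise was +0.38 ± 0.11 (adjusted p = 0.0381, limma), or 1.298-fold with a 95% interval of 1.088 to 1.548. The second probe had +0.26 ± 0.11 and did not pass in the fit of all probes (adjusted p = 0.138, limma), and there the chosen probe did not pass either (adjusted p = 0.059). The call was lost without array A (+0.29, adjusted p = 0.0537), without array B, array C or any one birth array (+0.34 to +0.41, adjusted p = 0.07398 to 0.1183) and with no filter on dim probes (adjusted p = 0.07147). Without array D it held at +0.46 ± 0.09 (adjusted p = 0.0166). The single Ppara window is shown as for the other genes that passed.
Ppara window 1, chr15:85735526-85735775, plus strand: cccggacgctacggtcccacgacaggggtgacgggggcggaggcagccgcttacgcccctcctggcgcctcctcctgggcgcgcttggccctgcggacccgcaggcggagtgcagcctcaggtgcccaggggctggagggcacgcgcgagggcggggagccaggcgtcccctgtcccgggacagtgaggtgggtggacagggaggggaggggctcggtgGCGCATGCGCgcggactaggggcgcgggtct
The Ppara window, in the same build, holds GCGCATGC 31 bases before the start site and, overlapping it, on the opposite strand 29 bases before.

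**Figure D2:**
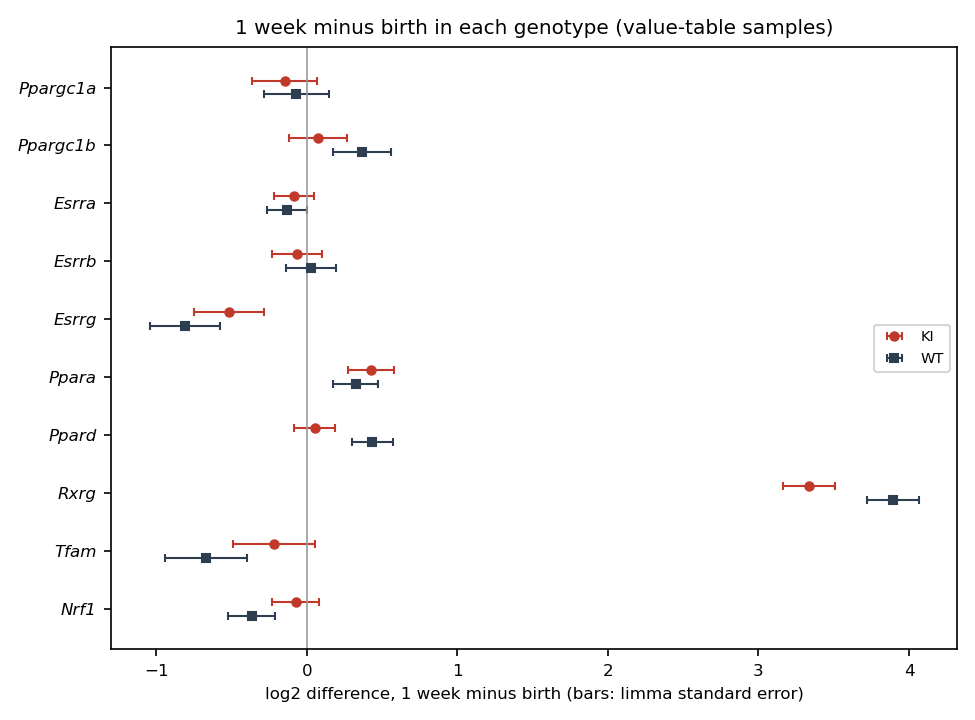
Log2 difference of 1 week minus birth for each gene in KI (red) and WT (dark), with limma standard error bars, for the value-table samples. Rxrg lies at 3.34 in KI and 3.89 in WT; Esrrg is below 0 and Ppara above 0 in both.

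The coactivators did not pass the test. Ppargc1a (PGC-1 alpha) stood at 3.16 and 3.30 on the KI arrays and 3.25 and 3.76 on the WT arrays at 1 week, against 3.40 and 3.36 on the KI arrays and 3.35 and 3.80 on the WT arrays at birth. The ages overlapped, and the difference was -0.11 ± 0.15 (adjusted p = 0.624, 95% interval -0.47 to 0.25). Its other probe gave +0.04 ± 0.18. Ppargc1b (PGC-1 beta) stood at 3.57 and 3.44 in KI and 3.80 and 3.82 in WT at 1 week, against 3.44 and 3.42 in KI and 3.74 and 3.16 in WT at birth. That gave +0.22 ± 0.14 (adjusted p = 0.263, 95% interval -0.10 to 0.54), with +0.04 ± 0.17 for the other probe.

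Esrra encodes ERR alpha, whose target genes include much of the respiratory chain. Its level was 5.11 and 5.07 in KI and 5.13 and 4.96 in WT at 1 week, against 5.13 and 5.21 in KI and 5.27 and 5.08 in WT at birth. The difference was -0.11 ± 0.09 (adjusted p = 0.415, 95% interval -0.33 to 0.11). Esrrb, the third ERR, had -0.02 ± 0.12 (adjusted p = 0.924, 95% interval -0.30 to 0.26). Ppard, encoding PPAR delta, had +0.24 ± 0.10 (adjusted p = 0.099, 95% interval 0.02 to 0.47). It stood at 0.76 and 0.76 in KI and 0.82 and 1.09 in WT at 1 week, against 0.65 and 0.76 in KI and 0.52 and 0.52 in WT at birth.

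Tfam stood at 2.32 and 2.39 in KI and 2.37 and 1.49 in WT at 1 week, against 2.60 and 2.54 in KI and 2.73 and 2.47 in WT at birth. The 1-week arrays all lay lower, and array D was far below the other 3. The difference was -0.44 ± 0.19 (adjusted p = 0.122, 95% interval -0.90 to 0.01), and its other probe gave -0.46 ± 0.21. Without array D it was -0.23 ± 0.10 (adjusted p = 0.168). Without array A, Tfam passed at -0.66 (adjusted p = 0.00726) and Ppard at +0.31 (adjusted p = 0.0369). Nrf1 gave -0.22 ± 0.11 (adjusted p = 0.167, 95% interval -0.48 to 0.04) on its chosen probe, and +0.07 ± 0.12 and -0.04 ± 0.15 on 2 others. The remaining Nrf1 probe was above background only on array A.

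The other PPAR and RXR genes are Pparg, Rxra and Rxrb. Rxra, the retinoid X receptor alpha, stood at 4.39 and 4.31 in KI and 4.51 and 4.42 in WT at 1 week, against 4.61 and 4.88 in KI and 4.71 and 4.89 in WT at birth. It fell by 0.37 on the log2 scale (-0.37 ± 0.10, adjusted p = 0.0347, limma), in the direction opposite to Rxrg. That call was not made without array D (-0.35, adjusted p = 0.0739) or in the fit of all probes (adjusted p = 0.0556), and its other probe gave +0.19 ± 0.28. Rxrb had -0.15 ± 0.11 (adjusted p = 0.345) and Pparg -0.18 ± 0.17 (adjusted p = 0.468).

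Several lists of markers of other cell types differed between the ages or stood apart on single arrays. Of 12 adipocyte markers, 11 were above background on arrays B, C and D, against 5 on array A and 5 or 6 at birth. Their median level was -2.01, -2.28 and -0.78 on B, C and D and -5.79 on A, against -5.27 to -4.67 at birth, while their summed level was 178.2 to 255.5 at 1 week, against 173.7 to 199.1. Ucp1, the uncoupling protein of brown fat, was 0.52 and 1.23 on B and C, 2.40 on D and -6.28 on A, against -7.28 to -6.84 at birth. On array A, where the adipocyte median was lowest, Rxrg was at its highest, and on array D, where that median was highest, Esrrg and Tfam were at their lowest. Of the 1-week arrays, D also had the lowest Esrra, Esrrb and Ppara but the highest Ppargc1a, Ppargc1b and Ppard. On arrays B and C, Tfam was at 2.32 and 2.39, against 2.37 on A, and Esrrg at 1.20 and 0.94, against 1.21. A link to the adipocyte markers was not tested.

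The median of 8 atrial markers was 3.54 and 3.42 on B and C, 4.40 on D and 1.38 on A, against 1.74 to 2.65 at birth, but their summed level was 69.54 to 485.5 at 1 week, against 439.5 to 587.1, and 0 of 7 tested passed with age (limma, value-table samples; 1 at an unadjusted p below 0.05). Fibroblast markers were higher at 1 week by both measures, with a sum of 432.2 to 561.1, against 230.1 to 275.5 at birth, and a median of 5.50 to 5.84, against 4.59 to 5.07. Of 8 tested, 5 passed higher and 1 passed lower with age over both genotypes. Endothelial markers were higher by their sum, at 170.9 to 235.5 against 133.5 to 138.6, but their medians overlapped, at 3.12 to 3.30 against 2.999 to 3.37. The same held for macrophage markers, with sums of 11.6 to 16.01 against 7.86 to 10.22 and medians of -0.26 to 0.35 against -0.34 to 0.04. Liver markers were lower by their sum, at 0.92 to 2.11 against 2.57 to 4.67, with overlapping medians. Erythroid sums (456.5 to 668.4 against 457.3 to 490.7) and skeletal muscle sums (26.12 to 59.6 against 48.2 to 62.42) overlapped between the ages. With value-table samples, 3 of 11 adipocyte, 4 of 8 endothelial, 4 of 8 macrophage and 1 of 5 erythroid markers tested passed higher with age, and none lower. For liver 3 of 6 and for skeletal muscle 2 of 5 passed lower, and none higher. Over all genes, 14.8% passed higher and 14.5% lower. The part of these cells in the results was not tested. In ventricle RNA, fewer cells of a type and less RNA per cell cannot be told apart.

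**Figure D3:**
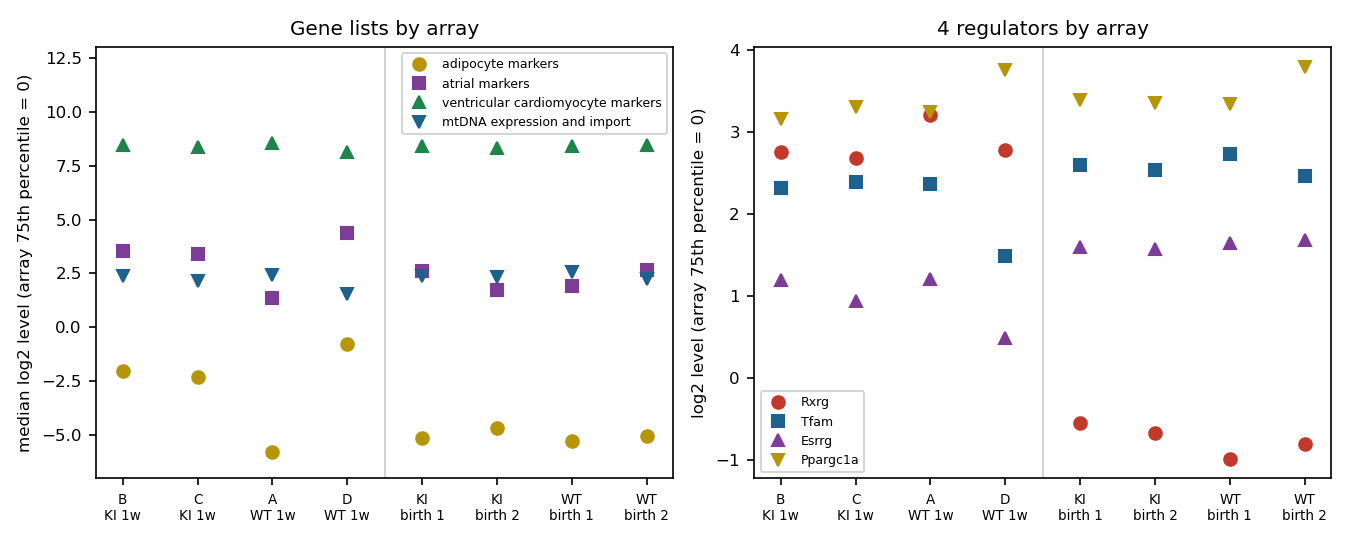
Left, median log2 level of 4 gene lists on each array; right, log2 level of Rxrg, Tfam, Esrrg and Ppargc1a on the same arrays (array 75th percentile at 0). Adipocyte markers are at -0.78 on array D and -5.79 on array A, while Rxrg is at 2.78 on D and 3.21 on A. On the birth arrays adipocyte markers are at -5.27 to -4.67 and Rxrg at -0.99 to -0.55.

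The genotype comparisons asked whether the knock-in ventricle differed at either age. None of the 10 genes passed at 1 week, where 0.0508% of all genes did, or at birth, where 0.0381% did, or in the difference between the 2 (0.00635%). At an unadjusted p below 0.05, limma gave 0 of the 10 genes at 1 week, 1 at birth (Esrrb) and 0 for the interaction. Of all 15744 genes, 1113, 741 and 762 were below it in these comparisons. With scanner-file samples the count of the 10 genes that passed was 0 in each (all genes: 0.00635% at 1 week, 0% at birth and 0% for the interaction). There 1 of the 10 genes at 1 week (Esrrg), 0 at birth and 0 for the interaction had an unadjusted p below 0.05 in limma. Of all 15757 genes, 1555, 677 and 991 did.

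At 1 week the differences, KI minus WT, included Tfam at +0.43 ± 0.27 (adjusted p = 0.704, 95% interval -0.21 to 1.06), which was -0.01 without array D. Without array D, WT at 1 week is array A alone, and without array A it is array D alone. Without D the median difference, KI minus WT, was +2.80 for adipocyte markers and +2.54 for atrial markers, against +0.66 and +1.14 with both arrays. Esrrb was at +0.36 ± 0.17 (adjusted p = 0.689, 95% interval -0.04 to 0.75). Esrrb stood at 1.31 and 1.63 in KI and 1.17 and 1.06 in WT at 1 week, and at 1.69 and 1.38 in KI and 1.14 and 1.04 in WT at birth. By value-table samples, KI arrays lay above WT arrays at both ages. At birth the difference was +0.45 ± 0.17 (adjusted p = 0.921, 95% interval 0.05 to 0.84). The groups of 2 arrays did not overlap for 31.9% of all genes at birth and for 37.9% at 1 week (39.8% with scanner-file samples), so a gap between 2 arrays and 2 others is common here. With scanner-file samples Esrrb had +0.10 at 1 week (95% interval -0.40 to 0.60), and the genotypes overlapped.

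Ppargc1a was -0.27 ± 0.22 (95% interval -0.79 to 0.24) at 1 week and -0.20 ± 0.22 (95% interval -0.71 to 0.32) at birth. With scanner-file samples it was +0.33 at 1 week (95% interval -0.16 to 0.82). The 1-week value was -0.02 without array D (WT array A alone) and -0.53 without array A (WT array D alone). The other Ppargc1a probe was negative in both records, at -0.54 with value-table samples and -0.13 with scanner-file samples in the fit of all probes. The sign also depended on the record for Tfam, at +0.43 with value-table samples and -0.40 with scanner-file samples, and for Esrrg, at +0.22 and -0.49. Ppard and Esrra turned sign as well. For Rxrg, KI minus WT was -0.27 ± 0.17 (adjusted p = 0.705, 95% interval -0.68 to 0.14) at 1 week, with -0.053 without array A and -0.49 without array D, and +0.29 ± 0.17 (adjusted p = 1, 95% interval -0.12 to 0.69) at birth.

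**Figure D4:**
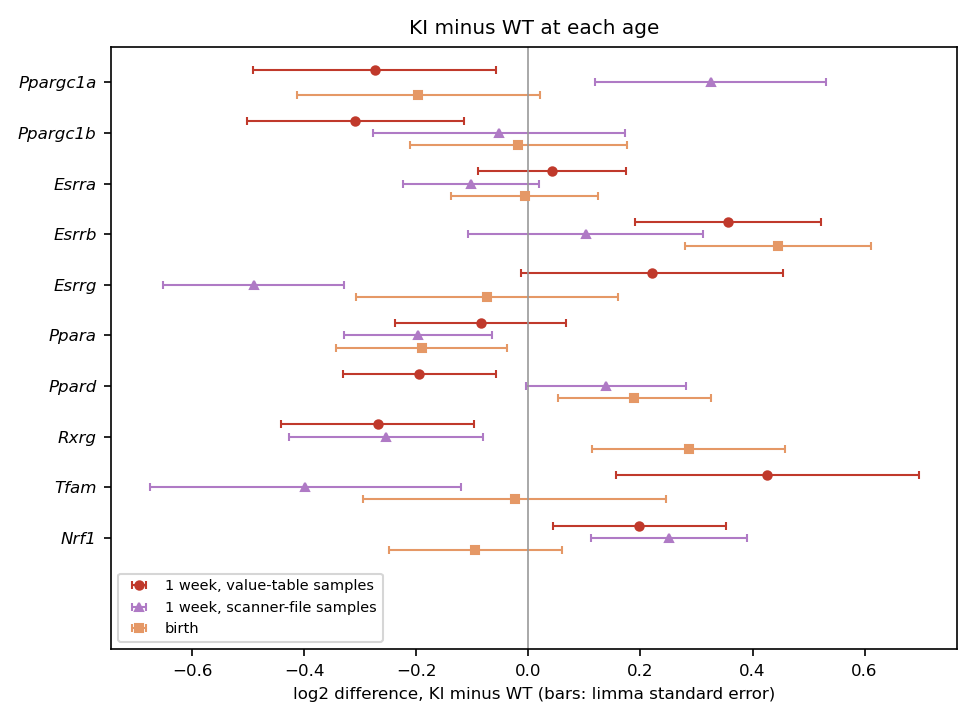
Log2 difference of KI minus WT for each gene at 1 week and at birth, with limma standard error bars, with scanner-file samples beside value-table samples at 1 week. No gene passed, and Tfam, Esrrg and Ppargc1a lie on opposite sides of 0 in the 2 records.

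Rxrg and Esrrg lie on chromosome 1, as Tnnt2 does, 143 and 297 tested genes away from it in GRCm38.p6 gene order. Neither passed the genotype test at either age.

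Genes on which these regulators are known to act were taken as lists. Of 31 known ERR targets tested, 8 rose and 0 fell with age (0 fell at an unadjusted p below 0.05, limma). Of all genes, 29.3% passed, with 14.8% rising and 14.5% falling. Scanner-file samples gave 7 and 2, where 30.1% of all genes passed. Ckmt2, the mitochondrial creatine kinase of muscle, rose by +1.31 ± 0.16 (adjusted p = 0.00162), the glucose transporter Slc2a4 by +0.73 ± 0.10 (adjusted p = 0.00259) and the cytochrome oxidase subunit Cox8b by +0.68 ± 0.08 (adjusted p = 0.00129). The list median was +0.06, against -0.03 over all genes. Of 32 PPAR targets tested, 6 rose and 8 fell (3 and 7 with scanner-file samples), with a median of -0.10; 29.3% of all genes passed (30.1% with scanner-file samples). The oxidation enzyme Decr1 rose by +0.76 ± 0.10 (adjusted p = 0.00244) and the lipid droplet protein Plin5 by +0.73 ± 0.17 (adjusted p = 0.0175). The pantetheinase Vnn1 fell by 2.13 on the log2 scale (-2.13 ± 0.29, adjusted p = 0.00234), and the thioesterase Acot1 had -1.37 ± 0.12 (adjusted p = 0.000481).

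**Figure D5:**
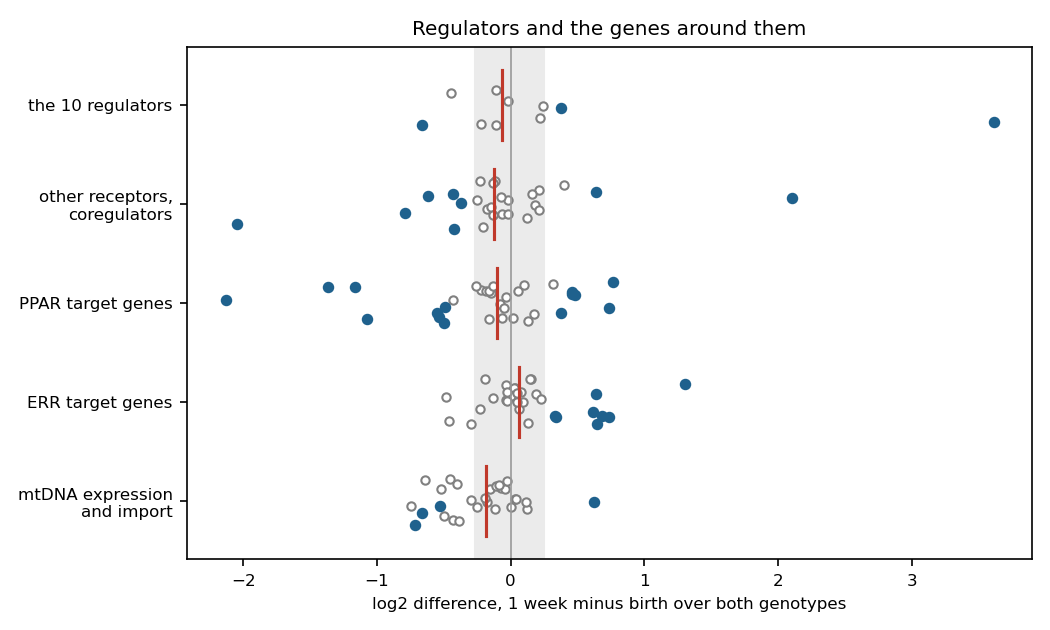
Log2 difference of 1 week minus birth for the tested genes of each list (each point is a gene, filled where it passed; red bar, list median; grey band, quartiles of all genes tested, -0.26 to 0.25). The ERR targets have 8 filled points above 0 and none below, and PPAR targets have 6 above and 8 below, where 29.3% of all genes passed. With scanner-file samples 7 ERR targets passed above 0 and 2 below, and 3 PPAR targets above and 7 below.

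Of 26 related receptors and coregulators, 2 rose and 6 fell, where 29.3% of all genes passed. The thyroid hormone receptor Thrb rose by +2.11 ± 0.19 (adjusted p = 0.000523) and Perm1, a muscle regulator that acts with PGC-1 and ERR and is also listed as an ERR target, by +0.64 ± 0.17 (adjusted p = 0.0289). Klf15, a cardiac metabolic transcription factor, had -2.05 ± 0.25 (adjusted p = 0.00165), the AMP kinase subunit Prkaa2 -0.79 ± 0.13 (adjusted p = 0.00474) and the receptor Nr0b2 -0.62 ± 0.13 (adjusted p = 0.0146). Of 28 genes for mitochondrial DNA expression and import, 1 rose and 3 fell (1 and 9 with scanner-file samples), with a median of -0.19, where 29.3% of all genes passed (30.1% with scanner-file samples). Alas1, of haem synthesis, rose by +0.62 ± 0.16 (adjusted p = 0.0278), and the helicase Twnk had -0.72 ± 0.15 (adjusted p = 0.0126), the nuclease Mgme1 -0.66 ± 0.11 (adjusted p = 0.00461) and the polymerase subunit Polg2 -0.53 ± 0.09 (adjusted p = 0.00537). The median level of that list was 1.53 on array D, against 2.15 to 2.44 on the other 1-week arrays. No gene of the 4 lists passed in a genotype comparison in either record, where at most 0.0508% of all genes passed. At an unadjusted p below 0.05 (limma), scanner-file samples gave 8 ERR targets, 7 PPAR targets and 7 mitochondrial genes lower in KI at 1 week. The related receptors and coregulators had 1, no list gene was higher, and 1555 of 15757 genes were below it in both directions. Value-table samples gave 1, 3, 0 and 0 lower and none higher, against 1113 of 15744 genes. The cause was not tested.

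The genes whose levels followed a member most closely over the 8 arrays are given as a description. They were picked by correlation over the same arrays, so their age result follows largely from that choice and adds nothing to that of their member. Those of Rxrg, Esrrg and Ppara passed with age over both genotypes. Those of Esrra and Ppargc1a did not (adjusted p = 0.135 to 0.933, limma). For Rxrg they were Cd83 (Pearson r = 0.998), Nfkbie (0.997) and Endou (0.996), each higher at 1 week. For Esrrg they were Ddx28 (0.991), Gab1 (0.989) and Asph (0.989), and for Ppara Syngr1 (0.993), Smpd1 (0.993) and Acsf3 (0.980). For Esrra they were Dnal1 (0.981), Nfil3 (0.974) and Tmem216 (0.969), and for Ppargc1a Mettl27 (0.955), Olfr1033 (0.938) and Il20rb (0.920).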

How the data were processed

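Ventricle RNA was measured on 8 one-colour Agilent arrays. The deposited scanner files and value table hold processed signal intensity that the authors' software had corrected within the array, per the file headers (Feature Extraction 11.0.1.1; the submitters' processing notes give 9.1). Flags in the deposited files (other) were read as 0 or 1, per the file headers. Each value-table column was matched to a scanner file at a relative tolerance of 0.0001, and the samples of arrays B, C and D differ between the records. Signals were log2 transformed and the array's 75th percentile of non-control probes subtracted. The brightest probe stood for a gene, and a gene was tested where some group had it well above background on each of its 2 arrays. limma 3.58.1 (R 4.3.3; lmFit, eBayes, group means, 4 residual degrees of freedom) was run on all 8 arrays with Benjamini-Hochberg adjustment over 15744 genes and a threshold of 0.05. It was tested on simulated data. Genes named were the 10 regulators, Pparg, Rxra, Rxrb, up to 3 genes in each direction of 4 lists, the 3 genes most like 5 of the regulators, Tnnt2 and up to 2 marker genes per list. Not every gene that this rule takes is reported here. Members and lists were chosen with earlier results of these data known. Alternatives were normexp background correction (offset 50, on median spot and median background signal, since no mean signal column was found), quantile normalization, no filter, all probes, only the arrays compared, an intensity trend, age alone, a replicate block, scanner-file samples and leaving out each array. All 6 promoter motifs searched are reported.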

Additional observations from a re-analysis of the deposited data

Results flagged for a closer look

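Rxrg drew attention because its genotype difference turned with age. By value-table samples both KI arrays lay below both WT arrays at 1 week, by as little as 2.76 on KI array B against 2.78 on WT array D, and above both at birth. Such gaps were found for 37.9% of all genes at 1 week and 31.9% at birth. With scanner-file samples the genotypes overlapped at 1 week. The age change in KI minus that in WT was -0.5553 ± 0.24 (adjusted p = 0.888 in limma, 95% interval -1.13 to 0.02) and did not pass. It ranged from -0.77 (without array D) to -0.34 (without array A) with 1 array left out, and was -0.54 with scanner-file samples.

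Ppard showed the same order of arrays by value-table samples, with -0.3836 ± 0.19 (adjusted p = 0.888 in limma, 95% interval -0.84 to 0.07), and its genotypes too overlapped at 1 week with scanner-file samples, which gave -0.05. It ranged from -0.52 (without array A) to -0.24 (without array D) with 1 array left out. The cause was not tested for either gene.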

How the results depend on the processing

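Rxrg passed with age in all 51 alternative values (3.001 to 4.11). None of 500 genotype or interaction values of the 10 genes passed (smallest adjusted p = 0.09737). Of 1010 alternative values of these genes, 920 kept direction and call, 16 lost and 12 gained a call, and 62 changed sign, none of them called in either setting; no cause was tested.

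Counts of all genes that passed were 6 for KI against WT at birth, 8 at 1 week, 1 for the interaction, 2988 for age in WT, 1670 in KI and 4606 over both. Leaving out each array in turn gave 1 to 40 at birth, 3 to 66 at 1 week, 19 to 44 for the interaction, 1195 to 4198 in WT, 654 to 1944 in KI and 2948 to 5540 over both. With no filter on dim probes they were 0 at birth (1079 at an unadjusted p below 0.05 in limma), 3 at 1 week, 0 for the interaction (960 unadjusted), 1869 in WT and 1090 in KI. Scanner-file samples gave 0 at birth (677 unadjusted), 1 at 1 week and 0 for the interaction (991 unadjusted), and with array D also left out 0 at birth (976 unadjusted), 43 and 31. Only the arrays compared gave 0 at birth (947 unadjusted), 0 at 1 week (931 unadjusted) and 1698 in WT. The fit of all probes counts probes, not genes, and a gene can have several, so its counts are not comparable with the others. It gave 2 probes at birth, 5 at 1 week, 0 for the interaction (1830 unadjusted), 4819 in WT and 8118 over both. Normexp gave 4 at 1 week, and quantile normalization 0 for the interaction (755 unadjusted).

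With the replicate number as a block (replicate block), the counts were 0 at birth (815 unadjusted), 10 at 1 week, 0 for the interaction (867 unadjusted), 2898 in WT, 1574 in KI and 4626 over both, and Esrrg in WT gained a call (adjusted p = 0.0451). Correlations of deviations between same-numbered samples ran from -0.137 to 0.286. They were not all above 0.1, so the numbers were not taken to pair the samples; whether some share a batch was not settled.

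Sign changes with quantile normalization were Ppargc1a 0.022 and Esrra 0.027 for age in WT, Esrra 0.0016 and Esrrb 0.020 for age over both, Esrra -0.041 at 1 week, Ppargc1b 0.0029 and Esrra 0.011 at birth, and Esrra -0.052 for the interaction. With normexp they were Esrrb -0.013 for age in WT and Esrra 0.026 at birth. With scanner-file samples they were Ppargc1a 0.33, Esrra -0.10, Esrrg -0.49, Ppard 0.14 and Tfam -0.40 at 1 week, Ppargc1a 0.52, Esrra -0.10, Esrrg -0.42, Ppara -0.0062 and Tfam -0.37 for the interaction, and Ppargc1a 0.15 for age in KI. With array D also left out, an alternative chosen after seeing the data, they were Ppargc1a 0.10, Esrra -0.049 and Esrrg -0.26 at 1 week, Ppargc1a 0.29, Esrra -0.042 and Esrrg -0.19 for the interaction, Esrrb 0.10 and Nrf1 0.036 for age in KI, and Esrrb 0.12 for age over both.

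Leaving out each array in turn, KI against WT at 1 week ranged from -0.040 to 0.13 for Esrra, -0.14 to 0.58 for Esrrg, -0.26 to 0.092 for Ppara and -0.010 to 0.86 for Tfam. At birth it ranged from -0.10 to 0.089 for Esrra, -0.42 to 0.031 for Ppargc1a, -0.31 to 0.27 for Ppargc1b and -0.16 to 0.11 for Tfam. The interaction ranged from -0.046 to 0.15 for Esrra, -0.25 to 0.068 for Esrrb, -0.067 to 0.66 for Esrrg, -0.072 to 0.28 for Ppara and -0.33 to 0.18 for Ppargc1a. Age in KI ranged from -0.22 to 0.10 for Esrrb, -0.18 to 0.036 for Nrf1 and -0.0033 to 0.11 for Ppard, age in WT from -0.028 to 0.081 for Esrrb and -0.32 to 0.18 for Ppargc1a, and age over both from -0.10 to 0.061 for Esrrb and -0.24 to 0.018 for Ppargc1a.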
